A study of Mus musculus with 30 samples.

Results

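The 33 genes described here are genes by which astrocytes are commonly recognised in the mouse brain. They were taken by symbol from the count table, where each symbol matched 1 of the 55401 gene IDs, and all 33 were among the 23736 genes with enough counts to test. Their levels were read in the nucleus accumbens, part of the ventral striatum, in 30 mice, all male and of the strain C57Bl/6J. Each library came from the bilateral tissue punches of 1 mouse. The mice had a spared nerve injury of the tibial type (SNI), a surgical model of lasting neuropathic pain, or a sham operation. At 4 weeks after surgery a 3-week course of intraperitoneal injections began, given 2 times a day. The 6 groups were sham on saline (n = 5, the study's control), SNI on saline (n = 5), sham on tianeptine at 30 mg/kg (n = 6), SNI on tianeptine at 30 mg/kg (n = 6), sham on desipramine at 15 mg/kg (n = 4) and SNI on desipramine at 15 mg/kg (n = 4). Desipramine, a tricyclic antidepressant, inhibits the reuptake of noradrenaline. Tianeptine is an antidepressant of another kind that activates mu opioid receptors. No group was without surgery and none carried a transgene.

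Astrocytes clear glutamate and potassium from around synapses, turn glutamate into glutamine, share ions and metabolites through gap junctions, line blood vessels with their endfeet and secrete lipoproteins and matrix proteins. Their gene expression differs between brain regions, and after damage many of them raise intermediate filament proteins such as GFAP. Of the 33 genes, 16 are also known in other cells of the brain (oligodendrocytes and their precursors, microglia, vessels or neurons), among them Apoe, Clu, Cst3, Glul, S100b and Atp1b2. In RNA from whole punches, fewer astrocytes and less RNA per astrocyte cannot be told apart.

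Levels are given in CPM, counts scaled by the effective size of each library. Sequencing depth was 24.5 to 120.7 M counts a library, and the 33 genes took 0.843% to 1.25% of them, with a median of 1.05%. The lowest count of any of the genes in any library was 75, so counting error was small beside the spread between animals. The library names fall into 2 sets: set 1 holds 24 libraries of 24.5 to 37.7 M counts (numbered 1 to 4 in each group), and set 2 holds 6 libraries of 98 to 120.7 M (numbered 5 and 6, none of them on desipramine). In set 1 the numbers of a group follow each other without a break, so an effect of that order and an effect of the group cannot be told apart. Markers of other tissue stood apart in some libraries. The score of 15 medium spiny neuron markers (the principal neurons of the accumbens; the mean log2 difference from the average library) stood at -2.50 for SNI desipramine replicate 2 and at -0.73 for replicate 3, while the other 28 libraries had -0.49 to 0.60. The score of 10 fibroblast and meninges markers reached 2.81 in sham saline replicate 3.

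Levels differed widely between the genes. Per kilobase of exon, the highest mean level over the libraries was that of Apoe, the main lipid carrier secreted by astrocytes, at 481 CPM per kb. Cst3, a secreted protease inhibitor, followed at 431 CPM per kb, Sparcl1, a secreted matrix protein that promotes synapse formation, at 367 CPM per kb, and Glul, glutamine synthetase, at 254 CPM per kb. On the same scale Slc1a2, the principal glutamate transporter of the forebrain, had 153 CPM per kb. At the other end, Aldh1l1, a folate enzyme used as a general astrocyte marker, had 11.3 CPM per kb, the transcription factor Sox9 had 5.96 and Ranbp3l had 1.09.

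Variation between animals also differed by gene. Within groups and library sets the SD of the log2 level was 0.16 at the median of the 33 genes and 0.21 at the median of all genes tested, and 11 of the 33 lay above the latter. The most variable were Gfap, with an SD of 0.71 and a 7.85-fold range over the 30 libraries, Ranbp3l, with an SD of 0.69 and a 10.9-fold range, and Gjb6 (connexin 30), with an SD of 0.50 and a 4.67-fold range. The steadiest was Plpp3, a lipid phosphatase, with an SD of 0.072 and a 1.23-fold range, followed by the glutamate transporter Slc1a3 with an SD of 0.090. Gfap, the filament protein of reactive astrocytes, was thus among the least even of these genes from mouse to mouse, while the transporter Slc1a3 was nearly constant.

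**Figure D1:**
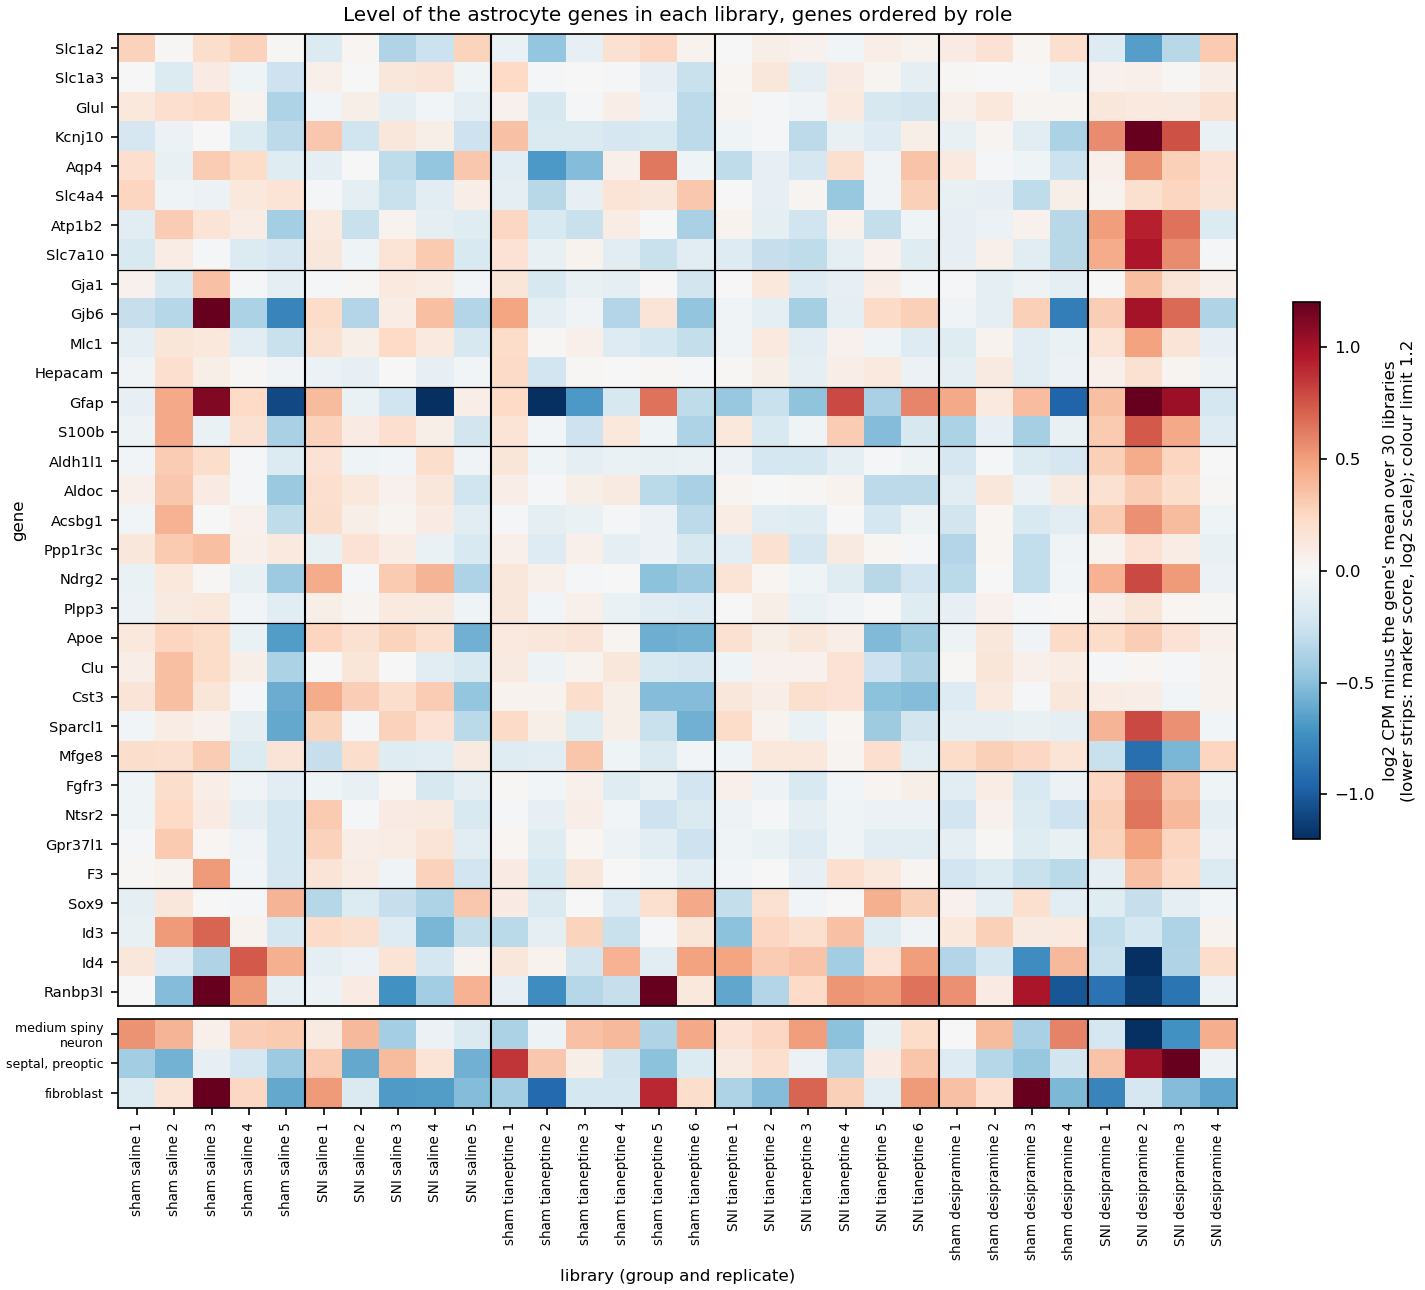
Level of each of the 33 astrocyte genes (vertical axis, grouped by role with thin lines between groups) in each of the 30 libraries (horizontal axis), as log2 CPM minus the gene's mean over all libraries. The 3 strips at the foot give the scores of medium spiny neuron, septal and preoptic neuron, and fibroblast markers. SNI desipramine replicate 2 has the highest value of its group in 22 of the 33 genes, and sham saline replicate 3 stands out in Gfap, Gjb6 and Ranbp3l, where it had 127, 85.0 and 31.9 CPM.

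The library sets differed in these genes, as measured by a single set term that rests on the saline and tianeptine groups. In the fit, 26 of the 33 (78.8%) were lower in set 2, against 48.7% of all genes tested, with a median log2 difference of -0.15 against 0.01. Apoe was lower by a log2 difference of -0.70 ± 0.05 (SE), from a mean of 1119 CPM in the saline and tianeptine libraries of set 1 to 685 CPM in set 2, and Cst3 by -0.68 ± 0.05, from 608 to 374 CPM. Sox9 went the other way, with 0.43 ± 0.06, from 22.9 to 31.0 CPM. Whether the difference was the same in each group was not tested, and the desipramine groups have no library in set 2.

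**Figure D2:**
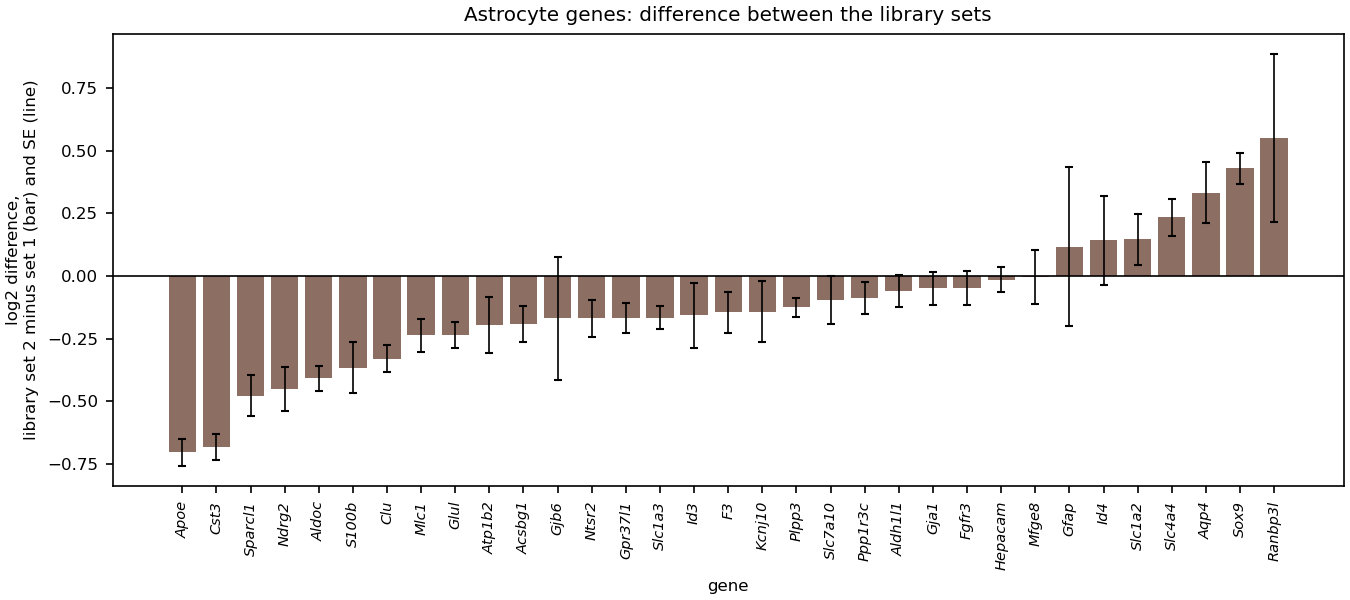
Log2 difference between library set 2 and library set 1 for each astrocyte gene (horizontal axis), from the model that also holds the groups; bars are estimates and lines are standard errors. Bars run from -0.70 for Apoe to 0.55 for Ranbp3l, and 26 of 33 lie under 0.

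The first comparison asks what nerve injury did in mice on saline. No astrocyte gene was called: with edgeR's quasi-likelihood test, 0 of 33 passed an adjusted p of 0.05 (Benjamini-Hochberg over all genes tested; background 0% of genes higher and 0% lower), and DESeq2 and limma-voom also called 0. At an unadjusted p under 0.05, 3 were higher in SNI, where 4.55% of all genes were, and 3 were lower, where 5.19% were. The median log2 fold change of the 33 was -0.03, against 0.00 for all genes.

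Sox9, the transcription factor that maintains astrocyte identity, had 22.5, 26.8, 24.5, 23.9 and 32.4 CPM in sham saline replicates 1 to 5 and 19.2, 21.8, 20.1, 18.8 and 30.5 CPM in SNI saline. In set 1 every SNI value lay under every sham value, and the fifth library of each group, from set 2, was the highest. Its log2 fold change was -0.25 ± 0.08 (SE), with an unadjusted p of 0.00636 and an adjusted p of 0.436. Ppp1r3c, a glycogen-targeting subunit of protein phosphatase 1, had a log2 fold change of -0.22 ± 0.08 (adjusted p = 0.442), from a mean of 33.5 CPM in sham to 28.9 CPM in SNI. Ndrg2, a stress-responsive gene typical of astrocytes, had 0.26 ± 0.11 (adjusted p = 0.466). Its values were 521, 601, 559, 518 and 408 CPM in sham saline and 749, 547, 687, 733 and 427 CPM in SNI saline, so that 3 of the 5 SNI mice lay above all sham mice.

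Gfap, the usual marker of astrocyte reactivity, did not pass the test on saline. It had 55.0, 80.6, 127, 69.2 and 27.8 CPM in sham and 76.5, 55.8, 49.9, 19.6 and 62.0 CPM in SNI, and the groups overlapped. Its log2 fold change was -0.46 with a 95% confidence interval of -1.31 to 0.38 (adjusted p = 0.754). Leaving out sham saline replicates 2 and 3 moved it to 0.06 and moved the median of the 33 genes from -0.03 to 0.11. Sham saline replicate 3 was the library with the highest fibroblast score, and its reactive astrocyte score was also the highest of all, at 1.01. Of 32 tested genes known to be raised in reactive astrocytes, 27 were lower in SNI than in sham on saline. Of these, 13 had an unadjusted p under 0.05, where 5.19% of all genes were lower, and 0 passed the adjusted threshold. In sham saline replicates 1 to 5 Osmr had 3.62, 5.72, 9.08, 5 and 4.64 CPM, and Gbp2 had 1.6, 22.2, 8.17, 3.44 and 2.16 CPM. Both were highest in replicates 2 and 3, and the count of lower genes without these libraries was not computed. On saline the SNI group was also lower in 10 of 10 fibroblast and meninges markers and in 12 of 12 endothelial ones. The part of this other tissue in the astrocyte values was not tested.

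On tianeptine no difference between injured and sham mice was detectable in these genes. edgeR called 0 of 33 at the adjusted threshold (background 0% in each direction), as did DESeq2 and limma-voom, and 0 reached an unadjusted p under 0.05, where 0.303% of all genes were higher and 0.906% lower. The median log2 fold change was 0.03. Kcnj10, the inward rectifier that buffers potassium, ran from 152 through a median of 166 to 241 CPM in sham tianeptine and from 152 through 179 to 198 CPM in SNI tianeptine. The values of both groups overlapped.

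On desipramine some of the genes differed between the injured and the sham mice in the fit to all 30 libraries. In a fit to the desipramine libraries alone none of the 33 passed, and the smallest adjusted p was 0.14 (edgeR). In SNI mice 11 of the 33 genes were higher and 1 was lower past the adjusted threshold, where 7.22% of all genes tested were called higher and 4.08% lower. Without adjustment, p was under 0.05 for 17 higher and 1 lower, and for 15.7% and 12% of all genes. In all 26 of the 33 had a positive fold change, and the median was 0.26 on the log2 scale, against 0.01 for all genes.

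**Figure D3:**
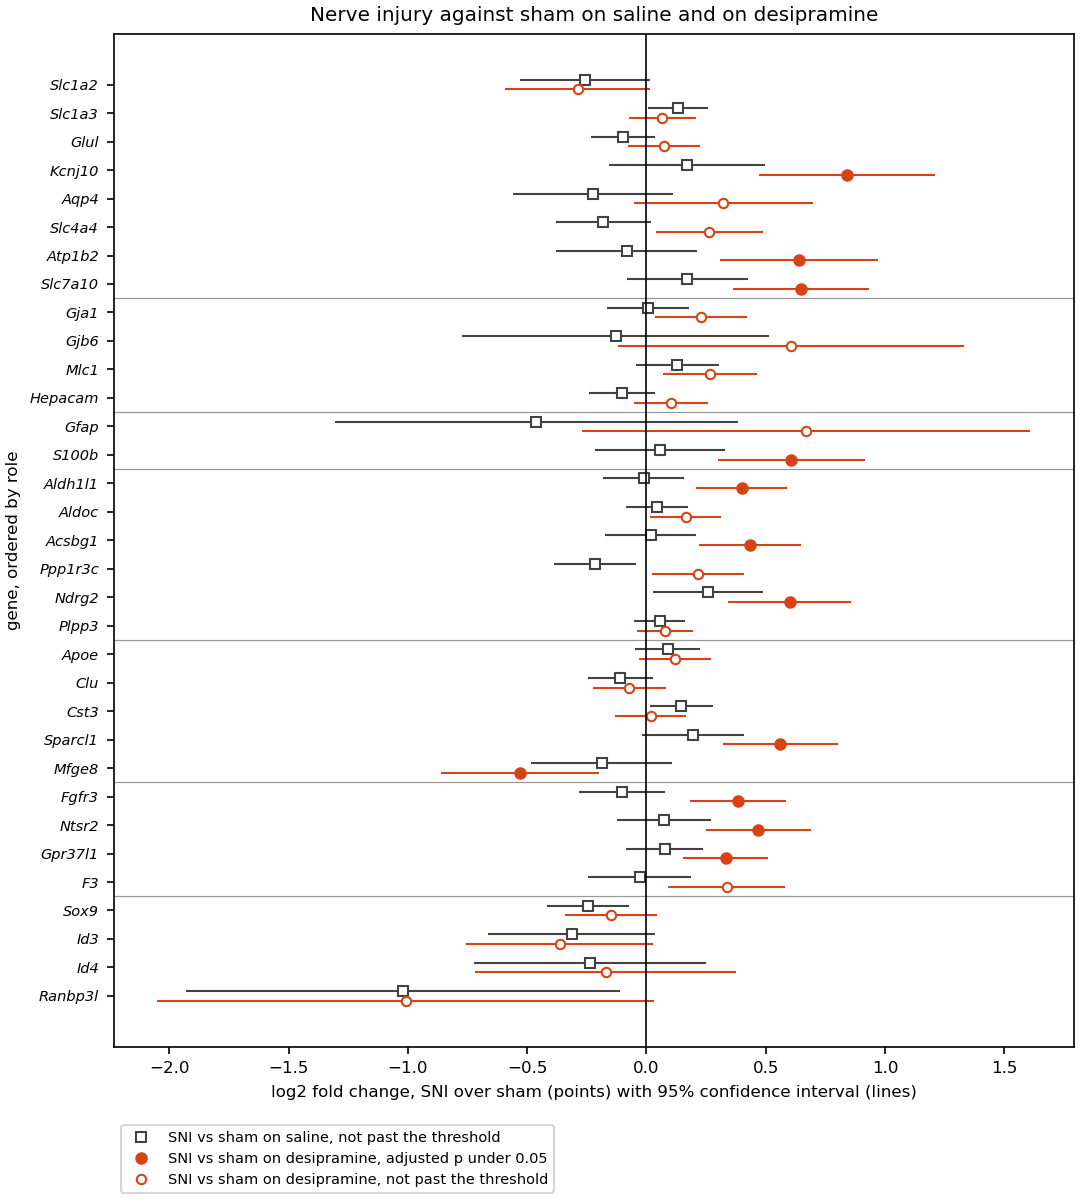
Log2 fold change of SNI over sham (points) with 95% confidence intervals (lines) for each astrocyte gene, on saline (squares) and on desipramine (circles); filled symbols have an adjusted p under 0.05. The 12 filled circles are all on desipramine, from -0.53 for Mfge8 to 0.84 for Kcnj10, and no saline square is filled.

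Among the 8 genes of glutamate and ion transport, 3 rose. Kcnj10 had 177, 193, 172 and 145 CPM in sham desipramine replicates 1 to 4 and 279, 454, 320 and 179 CPM in SNI desipramine. Replicates 1 to 3 of SNI lay above every sham mouse and replicate 4 lay among them. The means were 172 ± 20.3 (SD, n = 4) and 308 ± 114 (SD, n = 4), the log2 fold change was 0.84 ± 0.18 (SE) and the adjusted p 0.00747 (edgeR).

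Slc7a10, which carries D-serine and other small neutral amino acids, had 37.5, 42.1, 36.8 and 31.9 CPM in sham and 54.6, 78.7, 59.7 and 39.5 CPM in SNI. The order of the replicates was that of Kcnj10, and the log2 fold change was 0.65 ± 0.14 (adjusted p = 0.00754). A gene on the opposite strand, Lrp3, covers 17.9% of the exonic length of Slc7a10, and whether the counting used strand is not given in the sources used here. Atp1b2, the beta subunit of the astrocytic sodium pump, rose by 0.64 ± 0.16 (adjusted p = 0.0149), from 244 to 317 CPM in sham to 274 to 587 CPM in SNI.

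The glutamate transporters did not follow. Slc1a2 had 2133, 2243, 2028 and 2278 CPM in sham desipramine and 1785, 1261, 1585 and 2482 CPM in SNI desipramine, lowest in replicate 2, where Kcnj10 was highest. Its log2 fold change of -0.29 ± 0.15 did not pass (adjusted p = 0.209). Slc1a3 had 528 to 556 CPM in sham and 557 to 583 CPM in SNI. These ranges did not overlap, but the log2 fold change was 0.07 ± 0.07 (adjusted p = 0.571). Glul (0.07 ± 0.07), the water channel Aqp4 (0.32 ± 0.18) and the bicarbonate transporter Slc4a4 (0.26 ± 0.11) did not pass either.

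All 4 receptors had positive fold changes and 3 rose. Ntsr2, a neurotensin receptor found on astrocytes, had 93.6, 113, 97.8 and 92.0 CPM in sham and 134, 171, 144 and 101 CPM in SNI, a log2 fold change of 0.47 ± 0.11 (adjusted p = 0.0098). Fgfr3, a receptor for fibroblast growth factors, rose by 0.38 ± 0.10 (adjusted p = 0.0158) and the orphan receptor Gpr37l1 by 0.33 ± 0.09 (adjusted p = 0.0177). A transcript on the opposite strand covers 13.9% of the exonic length of Fgfr3, with the same limit as for Slc7a10. F3 (tissue factor) had 31.7 to 35.5 CPM in sham and 35.5 to 50.6 in SNI, with a log2 fold change of 0.34 ± 0.12 and an adjusted p of 0.0649.

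Of the 6 metabolic genes, 3 rose and all had positive fold changes. Ndrg2 had 440, 550, 451 and 540 CPM in sham and 737, 953, 789 and 525 CPM in SNI, a log2 fold change of 0.60 ± 0.13 (adjusted p = 0.00733). Aldh1l1 had 44.1, 50.4, 45.4 and 44.2 CPM in sham and 61.8, 69.1, 60.9 and 51.0 CPM in SNI. Here the lowest SNI value lay above the highest sham value, with a log2 fold change of 0.40 ± 0.09 (adjusted p = 0.0102). The antisense gene Gm15756 covers 11.05% of the exonic length of Aldh1l1, again with the strand setting unknown. Acsbg1, an acyl-CoA synthetase for long fatty acids, rose by 0.44 ± 0.10 (adjusted p = 0.0119). Aldoc (0.16 ± 0.07), Ppp1r3c (0.22 ± 0.10) and Plpp3 (0.08 ± 0.06) did not pass.

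The secreted proteins split. Sparcl1 had 976, 981, 995 and 982 CPM in the sham mice, almost 1 level, and 1399, 1832, 1542 and 1033 CPM in SNI. The groups did not overlap, and the log2 fold change was 0.56 ± 0.12 (adjusted p = 0.00725). Mfge8, a bridging protein for the engulfment of dying cells, fell by 0.53 ± 0.16 on the log2 scale (adjusted p = 0.0347). It had 196, 205, 200 and 188 CPM in sham and 140, 89.8, 115 and 202 CPM in SNI, the mirror image of Kcnj10, again with replicate 4 among the sham mice. Apoe (0.12 ± 0.07), Clu (-0.07 ± 0.07) and Cst3 (0.02 ± 0.07) did not pass.

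S100b, a calcium-binding protein, rose by 0.61 ± 0.15 (adjusted p = 0.0133), with 35.0 to 43.2 CPM in sham and 57.4, 76.6, 63.1 and 41.4 CPM in SNI. Gfap had 80.7, 63.8, 76.0 and 30.3 CPM in sham and 75.3, 154, 120 and 50.9 CPM in SNI. The groups overlapped, and with a log2 fold change of 0.67 ± 0.46 its adjusted p was 0.358. None of the 4 gap junction and membrane scaffold genes passed: Gja1 (connexin 43) had 0.23 ± 0.09, Gjb6 0.61 ± 0.35, Mlc1 0.27 ± 0.10 and Hepacam 0.10 ± 0.08. All 4 nuclear regulators had negative fold changes that did not pass, Sox9 with -0.15 ± 0.09, Id3 with -0.36 ± 0.19, Id4 with -0.17 ± 0.27 and Ranbp3l with -1.01 ± 0.51.

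**Figure D4:**
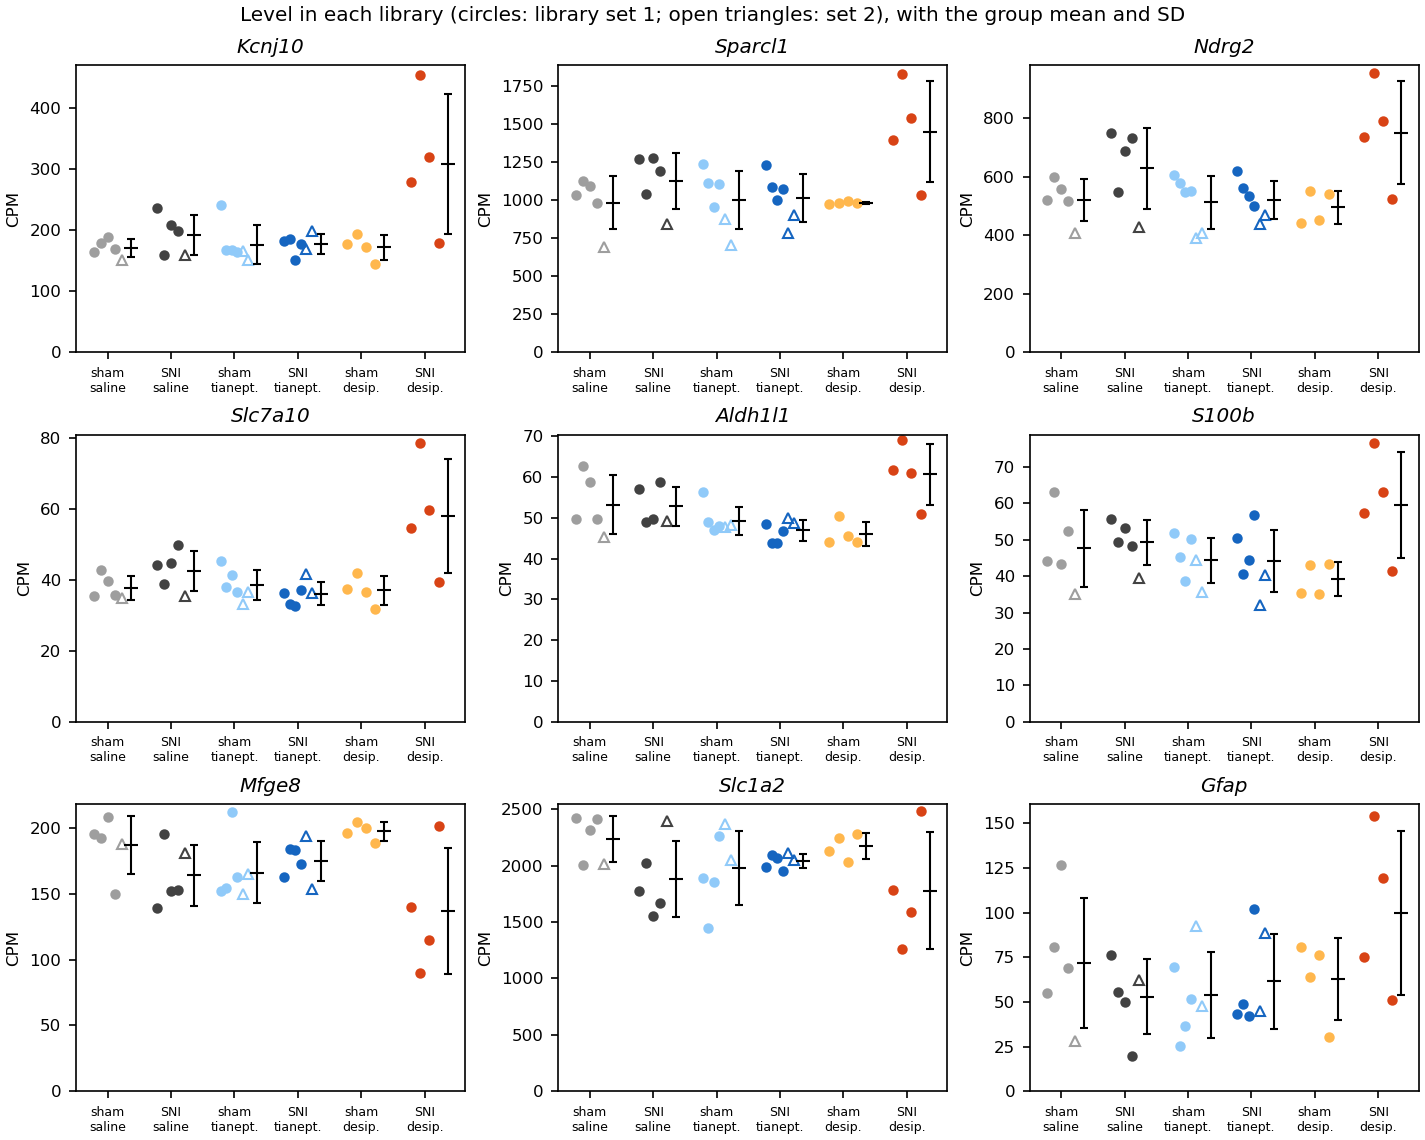
Level in CPM of 9 astrocyte genes (vertical axes, from 0) in each library of the 6 groups; circles are library set 1, open triangles set 2, and the black marks give the group mean and SD. In SNI desipramine the 4 points spread widely, Kcnj10 from 179 to 454 CPM, in the opposite order for Mfge8 (202 to 89.8) and Slc1a2 (2482 to 1261).

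The calls on desipramine rested on SNI desipramine replicate 2 and, less, on replicate 3. Replicate 2 had the highest value of its group in 22 of the 33 genes, against 35.7% of all genes, and replicate 4 the lowest in 20, against 35.9%. With replicate 2 left out 0 of the 33 were called, with replicate 3 left out 7, and with replicate 4 left out 16. The share of all genes called in each of these fits is not given here. Without replicate 2, Kcnj10 still had a log2 fold change of 0.58 (adjusted p = 0.0705, edgeR). Sparcl1 had 0.41 (adjusted p = 0.0657) and Mfge8 -0.39 (adjusted p = 0.177). Among all genes tested in each fit, the fits that left out 1 library called from 0 to 5903 in this comparison. The calls thus moved far beyond the astrocyte genes. Without both replicates 2 and 3 the count among the 33 was 0, but 26 of 33 fold changes were still positive, with a median of 0.10. Kcnj10 then had a log2 fold change of 0.40 (adjusted p = 0.632), Sparcl1 0.29 (0.614 for the adjusted p), Ndrg2 0.33 (adjusted p = 0.614) and Mfge8 -0.22 (adjusted p = 0.698). A fit to the 8 desipramine libraries alone, which does not borrow the spread of the other groups, called 0 genes of all kinds, with a median of 0.26 for the 33.

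Markers of other cells moved with these libraries. Of all genes tested, 7.22% were called higher and 4.08% lower in this comparison, and 15.7% and 12% had an unadjusted p under 0.05. All 15 medium spiny neuron markers were lower in SNI than in sham on desipramine, with 2 at an unadjusted p under 0.05 and 0 past the adjusted threshold. Their score was -0.20, -2.50, -0.73 and 0.44 in SNI desipramine replicates 1 to 4 and -0.39 to 0.60 in sham desipramine. Of 13 markers of septal, preoptic and hypothalamic neurons, cells of regions next to the accumbens, 11 were higher and 5 were called. Their score was 0.34, 1.01, 1.23 and -0.06 in the 4 SNI libraries and -0.45 to -0.16 in sham. For markers of cortical excitatory neurons the median log2 fold change was -1.94, and 9 of 10 were lower, 5 at an unadjusted p under 0.05 and 0 called. Their mean score was 0.90 in sham and -1.09 in SNI. For those of fibroblasts and meninges it was -1.07, and 10 of 10 were lower, 3 at an unadjusted p under 0.05 and 0 called. Oligodendrocyte markers were higher in 12 of 12 with 0 called, oligodendrocyte precursor markers in 7 of 8 with 2 called, and nuclear long noncoding RNAs in 6 of 7 with 0 called. With the medium spiny neuron score of each library as a covariate, a choice made after seeing the data, 0 of the 33 were called, 27 had a positive fold change and the median was 0.13. Kcnj10 then had a log2 fold change of 0.46 (adjusted p = 0.0873) and Mfge8 -0.33 (adjusted p = 0.167).

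Of 40 other astrocyte genes, 11 were higher and 3 lower past the threshold in SNI on desipramine, where 7.22% and 4.08% of all genes were. Slc6a11, a GABA transporter of astrocytes, rose by 1.51 ± 0.31 on the log2 scale (adjusted p = 0.00725), with 155 to 189 CPM in sham and 432, 778, 571 and 183 CPM in SNI. The zinc transporter Slc39a12 rose by 0.62 ± 0.11 (adjusted p = 0.00579). Agt, angiotensinogen, is known to be high in astrocytes of the diencephalon and brain stem and low in those of the cortex and striatum, and Mfge8 is known for the reverse. Agt had 4.34 to 7.17 CPM in sham desipramine and 43.8, 113, 84.0 and 6.55 CPM in SNI desipramine. Outside desipramine, Agt stood at 27.4, 33.8 and 19.6 CPM in SNI saline replicates 1, 3 and 4 and at 3.91 and 3.28 in replicates 2 and 5, at 25.4 and 20.5 CPM in sham tianeptine replicates 1 and 2, and at 21.7 CPM in each of SNI tianeptine replicates 1 and 6. Kcnj10 had 236, 208 and 198 CPM in those 3 SNI saline libraries and 160 and 159 in the other 2. In sham tianeptine replicate 1 it had 241 CPM, the highest of its group, but in replicate 2 it had 167 CPM, near the group's median of 166. In SNI tianeptine replicates 1 and 6 Kcnj10 had 182 and 198 CPM, in a group range of 152 to 198 CPM of which replicate 6 was the highest. The part of tissue from neighbouring regions in these values was not tested beyond the covariate given above.

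**Figure D5:**
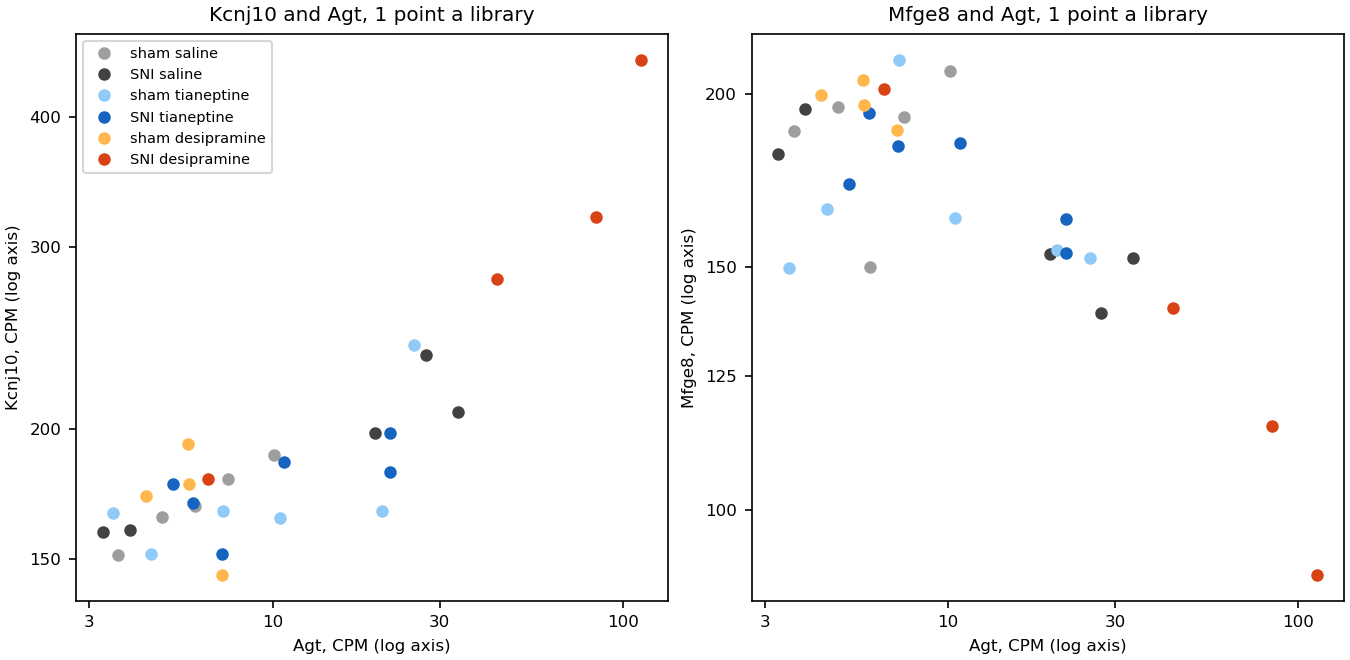
Kcnj10 (left) and Mfge8 (right) against Agt, in CPM on log axes, with 1 point for each of the 30 libraries, coloured by group. The libraries with the most Agt, SNI desipramine replicates 2, 3 and 1 at 113, 84.0 and 43.8 CPM, are the 3 highest for Kcnj10 and, with SNI saline replicate 1, the 4 lowest for Mfge8, and SNI desipramine replicate 4, at 6.55 CPM of Agt, lies among the sham libraries.

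Of 32 tested genes of reactive astrocytes, 2 were called higher on desipramine in SNI and 0 lower, a share no larger than the 7.22% of all genes called higher, and 22 had a negative fold change. Amigo2 had a log2 fold change of 1.14 ± 0.29 (adjusted p = 0.016), with 6.93 to 11.4 CPM in sham and 14.7, 25.9, 25.1 and 9.92 CPM in SNI. Cd44 had 1.13 ± 0.37 (adjusted p = 0.0467), at 0.972 to 5.74 CPM over both groups. Amigo2 again followed the order of Kcnj10 in that replicate 4 lay among the sham mice.

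Stretches of sequence before the start of genes that moved on desipramine are shown because the genes rose in the same libraries. RefSeq's promoter table (GRCm38.p6) held 35 starts for 28 of the 33 genes. The 250 bases before each start were searched on both strands for TTGGC, the core site of nuclear factor I, which drives astrocyte genes in development, for ACAATGG, bound by SOX factors, and for TTCNNNGAA, bound by STAT factors. These motifs do not contain each other. TTGGC was in 18 of the 35 stretches (51.4%) and in 41.5% of all 32851 promoters of that length. TTCNNNGAA was in 4 (11.4%, against 7.0% of all), and ACAATGG in 0 (3.0% of all). The lines give the 150 bases before the start, 5′ to 3′ on the strand of the gene, of the 4 genes that rose with the smallest p, and of the gene that fell, among those with a single start and no annotated exon or intron of their own in the stretch. Capitals mark a match to 1 of the 3 motifs.
Kcnj10: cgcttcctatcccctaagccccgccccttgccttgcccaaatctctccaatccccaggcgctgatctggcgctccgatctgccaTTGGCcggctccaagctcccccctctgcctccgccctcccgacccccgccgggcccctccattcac
Slc7a10: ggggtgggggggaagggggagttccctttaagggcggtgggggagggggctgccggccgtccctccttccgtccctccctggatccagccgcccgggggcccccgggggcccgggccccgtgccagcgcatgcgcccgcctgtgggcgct
Acsbg1: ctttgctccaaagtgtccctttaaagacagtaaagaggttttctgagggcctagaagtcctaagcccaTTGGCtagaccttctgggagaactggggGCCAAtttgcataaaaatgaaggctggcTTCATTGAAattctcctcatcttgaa
S100b: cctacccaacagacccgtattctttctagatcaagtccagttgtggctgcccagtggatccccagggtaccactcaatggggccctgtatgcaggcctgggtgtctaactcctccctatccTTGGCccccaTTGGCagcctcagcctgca
Mfge8: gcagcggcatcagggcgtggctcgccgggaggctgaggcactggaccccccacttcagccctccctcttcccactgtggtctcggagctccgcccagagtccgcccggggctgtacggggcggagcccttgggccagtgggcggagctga
The Kcnj10 stretch lies at chr1:172341060-172341209 on the plus strand, and holds 1 match, TTGGC. The Slc7a10 stretch (chr7:35186235-35186384, plus) and the Mfge8 stretch (chr7:79149061-79149210, minus) hold none. The Acsbg1 stretch (chr9:54661886-54662035, minus) holds 3 matches and the S100b stretch (chr10:76253686-76253835, plus) 2. Base composition differed as much, from 44.7% G and C for Acsbg1 to 79.3% for Slc7a10. TTGGC was also found in the 250 bases of genes that were not called, such as Glul, Slc1a2 and Apoe. These are matches of letters, not measured binding.

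Averaged over the 3 treatments, SNI against sham gave 2 called genes, both higher, where 1.53% of all genes were called higher and 0.316% lower. Ndrg2 had a log2 fold change of 0.30 ± 0.07 (adjusted p = 0.0323) and Sparcl1 0.26 ± 0.06 (adjusted p = 0.0352). Without adjustment, p was under 0.05 for 14 higher and 4 lower, and for 12.5% and 10.1% of all genes. This average holds the desipramine libraries: without SNI desipramine replicates 2 and 3 it called 0, with a median of 0.04 in place of 0.08. It also called 0 with limma-voom, without the filter on low counts, without the set term and in set 1 alone. DESeq2 called 5, and its own share of all genes called is not given here. In the same average Agt had 1.71 ± 0.37 (adjusted p = 0.0323).

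The desipramine groups were also set against saline. The SNI and the sham comparisons each have their own saline group, which the injury comparison on saline shares. In sham mice edgeR called 0 of 33, as did DESeq2 and limma-voom (background 0% in each direction). At an unadjusted p under 0.05, 0 were higher and 4 lower, where 4.33% and 3.29% of all genes were, and 30 of 33 had a negative fold change, with a median of -0.11. Ppp1r3c had 32.0, 36.2, 37.3, 30.4 and 31.6 CPM in sham saline and 22.8, 29.5, 23.7 and 28.3 CPM in sham desipramine. Its groups did not overlap, and the log2 fold change was -0.38 ± 0.09, with an unadjusted p of 0.000298 and an adjusted p of 0.392. F3 had -0.36 ± 0.11 (adjusted p = 0.547) and Aldh1l1 -0.22 ± 0.09 (adjusted p = 0.566). Without sham saline replicates 2 and 3 the median moved to -0.01 and Ppp1r3c to -0.29.

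In SNI mice on desipramine against SNI mice on saline, edgeR and limma-voom called 0 of 33 (background 0% in each direction by edgeR). DESeq2 called 4, and its own share of all genes called is not given here, so these 4 have no background. At an unadjusted p under 0.05, 11 were higher and 1 lower, where 10.7% and 6.81% of all genes were. Fgfr3 had 109, 107, 115, 98.8 and 104 CPM in SNI saline and 134, 174, 144 and 110 CPM in SNI desipramine. Only replicate 4 of desipramine lay within the saline range, and the log2 fold change was 0.39 ± 0.09 (adjusted p = 0.0769). Kcnj10 had 0.66 ± 0.17 (adjusted p = 0.0891), and Cst3 had -0.26 ± 0.07 (adjusted p = 0.0915). Cst3 had 729, 659, 622, 663 and 388 CPM in SNI saline, the last from set 2, and 569, 565, 523 and 551 CPM in SNI desipramine. In set 1 the groups did not overlap, and without SNI desipramine replicates 2 and 3 its log2 fold change was -0.25 (adjusted p = 1). Leaving out the same libraries moved the median of the 33 genes from 0.11 to -0.02.

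Averaged over both surgeries, desipramine against saline gave 0 called genes of 33 with edgeR and limma-voom and 1 with DESeq2, which was Cst3. By edgeR the background was 0.0169% higher and 0.0126% lower, and that of DESeq2 is not given here. The unadjusted p was under 0.05 for 2 higher and 3 lower, and for 7.16% and 5.36% of all genes, and Cst3 had -0.19 ± 0.05 (adjusted p = 0.172 with edgeR). The interaction, which tests whether the injury difference was larger on desipramine than on saline, called 0 with edgeR, DESeq2 and limma-voom (background 0% in each direction). Its unadjusted p was under 0.05 for 14 positive and 0 negative values, and for 7.28% and 5.01% of all genes. Its median was 0.26, with 28 of 33 positive, and the smallest p was that of Fgfr3, at 0.49 ± 0.13 (adjusted p = 0.236). So the larger injury difference on desipramine was not shown to differ from that on saline. Without SNI desipramine replicate 4 the interaction called 10 of the 33. Among all genes tested, the fits that left out 1 library called from 0 to 957 for this interaction. In a further fit 5 libraries were left out (sham saline 2 and 3, SNI desipramine 2 and 3, sham tianeptine 6), and the median of the 33 was 0.03. No marker score that sets sham tianeptine 6 or sham saline 2 apart is given here.

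In tianeptine against saline, with the same saline groups as controls, no astrocyte gene passed the threshold. In sham mice the 3 tools called 0 of 33 (background 0% in each direction). At an unadjusted p under 0.05, 0 were higher and 2 lower, where 3.72% and 3.12% of all genes were. Ppp1r3c had 25.5 through a median of 27.2 to 30.4 CPM on tianeptine, against 30.4 to 37.3 CPM on saline. The log2 fold change was -0.26 ± 0.08 (adjusted p = 0.714). It was -0.18 when sham saline replicates 2 and 3 were left out. In all 27 of 33 had a negative fold change, with a median of -0.08, which became 0.04 without those replicates.

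In SNI mice tianeptine again gave 0 called genes with the 3 tools (background 0% in each direction). At an unadjusted p under 0.05, 1 was higher and 2 lower, where 1.67% and 1.2% of all genes were. Sox9 had 0.21 ± 0.08 (adjusted p = 1), with a mean of 22.1 CPM on saline and 26.4 CPM on tianeptine, and Cst3 had -0.14 ± 0.06. Averaged over surgeries the counts were 0 called, and 0 higher and 2 lower at an unadjusted p under 0.05, where 2.74% and 2.01% of all genes were. The interaction of tianeptine with surgery called 0 with the 3 tools, with 2 positive and 0 negative at an unadjusted p under 0.05, where 2.24% and 1.96% of all genes were. These were Ppp1r3c, at 0.28 ± 0.11, and Sox9, at 0.28 ± 0.11 (adjusted p = 0.989 for both).

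Ppp1r3c and Sox9 came back in several of these comparisons. Ppp1r3c had its highest group mean in sham saline, at 33.5 CPM, and its other groups had means of 26.1 to 30.3 CPM. Sox9 had means of 22.1 CPM in both SNI saline and SNI desipramine and of 24.4 to 26.4 CPM in the other 4 groups. These group means are not adjusted for library set, and Sox9 was higher in set 2 by a log2 difference of 0.43 ± 0.06. In SNI saline the set 1 libraries had 18.8 to 21.8 CPM, all under 22.1, and the set 2 library had 30.5 CPM. SNI desipramine, all from set 1, had 20.03 to 23.8 CPM. The equal means thus rest on the set 2 library of SNI saline. Neither gene passed the adjusted threshold in any of the 12 comparisons.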

How the data were processed

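RNA sequencing of polyadenylated RNA was analysed from the deposited table of whole-number counts per gene and library. Per the submitters' processing notes, the authors used Trim Galore, HISAT2 on mm10, SAMtools and featureCounts, with versions, annotation and strand setting not given in the sources used here. FPKM values, also deposited, were not used. Groups came from the labels. Each library is 1 animal, so replicates are animals.

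Gene IDs were matched to GENCODE M21 (54349 exactly, 792 without the version, 260 unmatched). Counts were filtered with filterByExpr (23736 genes, 99.925% of counts), scaled by TMM and fitted with edgeR 4.0.16 (R 4.3.3), a robust quasi-likelihood model with 1 coefficient a group and the library set as covariate. The 12 comparisons are 2-sided contrasts with Benjamini-Hochberg adjustment over all genes tested and a threshold of 0.05. A single fit over all 30 libraries shares the spread between groups. The script was tested on simulated counts with known changes. Log2 CPM used a prior count of 2. Alternatives were DESeq2 1.42.0, limma-voom (limma 3.58.1), other scaling and filters, the set term, a replicate block and left-out libraries. Positions are on mm10.

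The genes, their roles and the marker lists were chosen with earlier results of these data known. By the naming rule, every gene may be named with its levels, and fold changes are given for the 3 smallest p-values of a comparison and for all that pass. On desipramine in SNI against sham, where genes passed, those of the other genes are also given. The fold change of Gfap on saline is given outside this rule, as Gfap is the usual marker of astrocyte reactivity. From the lists of other and of reactive astrocyte genes at most 2 a comparison are named.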

Additional observations from a re-analysis of the deposited data

Results flagged for a closer look

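Of 198 sets of a gene and a group, 10 held 1 library far from the rest by Dixon's test, where chance gives about 5% of such sets. The count was thus about what chance gives, and the cases are listed as a description. Sham saline replicate 3 stood above its group in Gjb6, at 85.0 CPM with the next at 26.8, and in Ranbp3l, at 31.9 CPM with the next at 9.13. Sham tianeptine replicate 1 was far above its group in Kcnj10, at 241 CPM with the next at 167, and in Aldh1l1, at 56.2 CPM with the next at 48.9. SNI saline replicate 5, the single library of set 2 in its group, was low in Apoe, at 675 CPM with the next at 1146, and high in Sox9, at 30.5 CPM with the next at 21.8. Sham tianeptine replicate 6 was low in Acsbg1, at 122 CPM with the next at 141, and replicate 5 was high in Ranbp3l, at 15.6 CPM. Both of these libraries are also from set 2. Sham tianeptine replicate 3 was high in Mfge8, at 212 CPM with the next at 165, and sham desipramine replicate 2 in Id3, at 26.8 CPM. No SNI desipramine library was far enough from the other 3 for this test.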

How the results depend on the processing

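In SNI against sham on desipramine, 12 genes were called in the main fit and 12 with DESeq2, limma-voom and no set term. The count was 11 with no filter, in set 1 alone and with the replicate block. All of these settings keep SNI desipramine replicates 2 and 3. The count was 0 without those replicates (median log2 fold change 0.098) and 0 without the 5 libraries named earlier (0.098). It was also 0 with the medium spiny neuron score (0.132) and in the fit to the groups compared. Averaged over treatments, the 2 called genes became 5 with DESeq2 and 0 with limma-voom, no filter, no set term, set 1 alone, the replicate block, the 3 choices of left-out libraries and the medium spiny neuron score. Desipramine against saline in SNI gave 4 with DESeq2, and averaged over surgeries 1. Shares of all genes called are not given for DESeq2 or for limma-voom, the filter, the set choices and the replicate block. The median of SNI against sham on saline was 0.112 without sham saline replicates 2 and 3 and 0.118 without the 5 libraries. That of tianeptine against saline in sham was 0.036 and 0.043, and the tianeptine interaction's was -0.078 and -0.133. Without the 5 libraries the median was 0.013 for desipramine in sham and 0.026 for the desipramine interaction. For desipramine in SNI it was -0.015 without SNI desipramine replicates 2 and 3 and -0.011 without the 5. Leaving out 1 library at a time gave 0 to 16 called on desipramine, 0 to 13 averaged over treatments, 0 to 10 for desipramine against saline in SNI, 0 to 2 for its average over surgeries and 0 to 10 for its interaction. In the same order, these fits called 0 to 5903, 0 to 3756, 0 to 3352, 2 to 360 and 0 to 957 of all genes tested. The labels do not say that replicate numbers pair animals, and the replicate block is given for completeness. Of 60 same-numbered pairs 16 had a correlation of deviations over 0.1, and all ran from -0.635 to 0.413. Pairs with different numbers were not compared, so these correlations cannot decide whether the numbers pair animals. Depth did not limit these genes. No fold change of a called gene reversed. Apart from the alternatives' own construction (fewer samples), the cause was not tested.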

Other observations

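Among the other astrocyte genes, the metallothioneins, small metal-binding proteins that are abundant in astrocytes, gave the smallest p-values in mice on saline. Mt2 had 27.6, 30.6, 30.9, 23.6 and 20.3 CPM in sham saline replicates 1 to 5 and 45.6, 35.1, 34, 46.3 and 23.8 CPM in SNI saline. Within library set 1, replicates 1 to 4, every SNI mouse lay above every sham mouse. The log2 fold change was 0.46 ± 0.09 (SE), with an unadjusted p of 3.56e-05 and an adjusted p of 0.404 (edgeR), so it did not pass. Mt3 had 0.20 ± 0.06 (adjusted p = 0.426).

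In injured mice Mt2 had a log2 fold change of -0.32 ± 0.09 on tianeptine against saline (adjusted p = 1), and the interaction of tianeptine with surgery was -0.55 ± 0.12 (adjusted p = 0.989). Mt1 had 153, 127, 115, 138 and 81.3 CPM in SNI saline and 104, 96.1, 98.1 and 101 CPM in SNI desipramine. In set 1 these groups did not overlap, and the log2 fold change was -0.38 ± 0.09 (adjusted p = 0.0769). Unlike Kcnj10 or Agt, Mt1 differed little between the 4 SNI desipramine mice. None of these values passed the adjusted threshold, and these genes were named for their small p-values.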
